A study of Mus musculus with 11 samples.

Results

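The 4 loci described here, *2810029C07Rik*, *4933428G20Rik*, *5930430L01Rik* and *Gm15907*, are mouse genes that still carry a provisional name, a RIKEN cDNA clone name ending in Rik or a predicted-gene number starting with Gm. They were taken by name from the 29307 genes of the count table, in which 9341 genes have a name of either kind, and each had 1 row. They had been picked because their levels shifted between the CONV-R libraries, from mice raised conventionally, and the germ-free (GF) libraries of this series, so their GF and CONV-R values are given as a description, without a test. In GF liver endothelium *2810029C07Rik* was higher (8.50 ± 2.08 against 0.433 ± 0.42 CPM, counts scaled to a common library size), and *4933428G20Rik* (10.5 ± 2.92 against 31.9 ± 6.88 CPM), *5930430L01Rik* (25.4 ± 2.33 against 49.2 ± 3.64 CPM) and *Gm15907* (12.6 ± 2.76 against 38.0 ± 7.85 CPM) were lower (mean ± SD, n = 5 GF and n = 6 CONV-R mice). What lies around them differed between loci. *Lhfpl2*, the gene that encloses *Gm15907*, was also lower in GF mice and the call held without any 1 mouse. Of the 10 tested genes within 100 kb only *Lhfpl2* and *Arhgap23*, which encloses *4933428G20Rik*, passed the threshold, which 7.48% of all tested genes did. The *Arhgap23* call was lost in 8 of 11 fits without 1 mouse, with a Log2FC of -0.45 to -0.34 over all 11. *Mark3*, which faces *2810029C07Rik*, did not pass with all mice. Without CONV-R replicate 3 it was higher in GF mice and passed (Log2FC 0.49, edgeR adjusted p = 0.0144).

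The study sequenced RNA of liver sinusoidal endothelial cells (ECs), the fenestrated cells that line the liver's capillaries, from age-matched male C57BL/6J mice. The 2 groups shared strain and sex and carried no transgene or drug. CONV-R mice were kept under specific-pathogen-free conditions with a normal microbiota and GF mice were raised without microbes, and each library came from 1 mouse. ECs were enriched with magnetic beads against CD146 and sorted by flow cytometry for the endothelial surface proteins CD31, CD105 and CD146. The paper reports that GF livers gave far fewer sorted cells and much less RNA than CONV-R livers. It also reports low viability of the sorted cells, and the cDNA was amplified before sequencing. These differences in input run along the group contrast, and their part in the values was not tested. The labels give no age in numbers. The authors left out 1 GF library for its low number of mapped reads, and the GF libraries used here are numbered 1, 2, 4, 5 and 6.

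A provisional name says only that a transcript has been seen or predicted, not what it does. Many such genes are long noncoding RNAs, transcripts without a long open reading frame that include lincRNAs, which lie apart from coding exons, antisense RNAs, which are read from the strand facing another gene, and RNAs that start from a promoter shared with a gene pointing the other way. Transcripts of the latter kinds often change together with the gene they face, but they can also be read independently of it. The function of the 4 loci is not stated by the annotation used here, and none is assumed.

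By the GENCODE M21 annotation of build GRCm38, all 4 loci are read from the minus strand and lie on different chromosomes. *2810029C07Rik* (ENSMUSG00000096995, chr12:111572317-111574402) is a noncoding RNA classed as starting from a bidirectional promoter, and its 2 transcripts cover 1954 bases of exon in 2 blocks. *4933428G20Rik* (ENSMUSG00000047988, chr11:97490783-97500340) is the only one classed as protein coding and has 3 exons of 1425 bases in all. *5930430L01Rik* (ENSMUSG00000106951, chr5:148990056-148995223) is a lincRNA with 2 transcripts and 3994 exon bases. *Gm15907* (ENSMUSG00000087319, chr13:94137447-94140117) is a lincRNA with 1 transcript and 2309 exon bases.

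Each locus sits differently with respect to its neighbours. *2810029C07Rik* starts 121 bases from the start of *Mark3*, a kinase gene that points away from it on the plus strand. *4933428G20Rik* lies within *Arhgap23*, a gene for a GTPase-activating protein, on the other strand, and all 3 of its exons overlap *Arhgap23* exons, exon 1 (chr11:97500088-97500340) over most of its length and coding sequence included. *Gm15907* lies wholly within an intron of *Lhfpl2*, a gene for a membrane protein of the LHFPL family, on the other strand, and the nearest *Lhfpl2* exons end at 94134923 and start at 94172810. *5930430L01Rik* overlaps only *Gm42791* and *Gm15406* on its own strand, which had 25 counts and 0 counts over all 11 libraries.

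**Figure D1:**
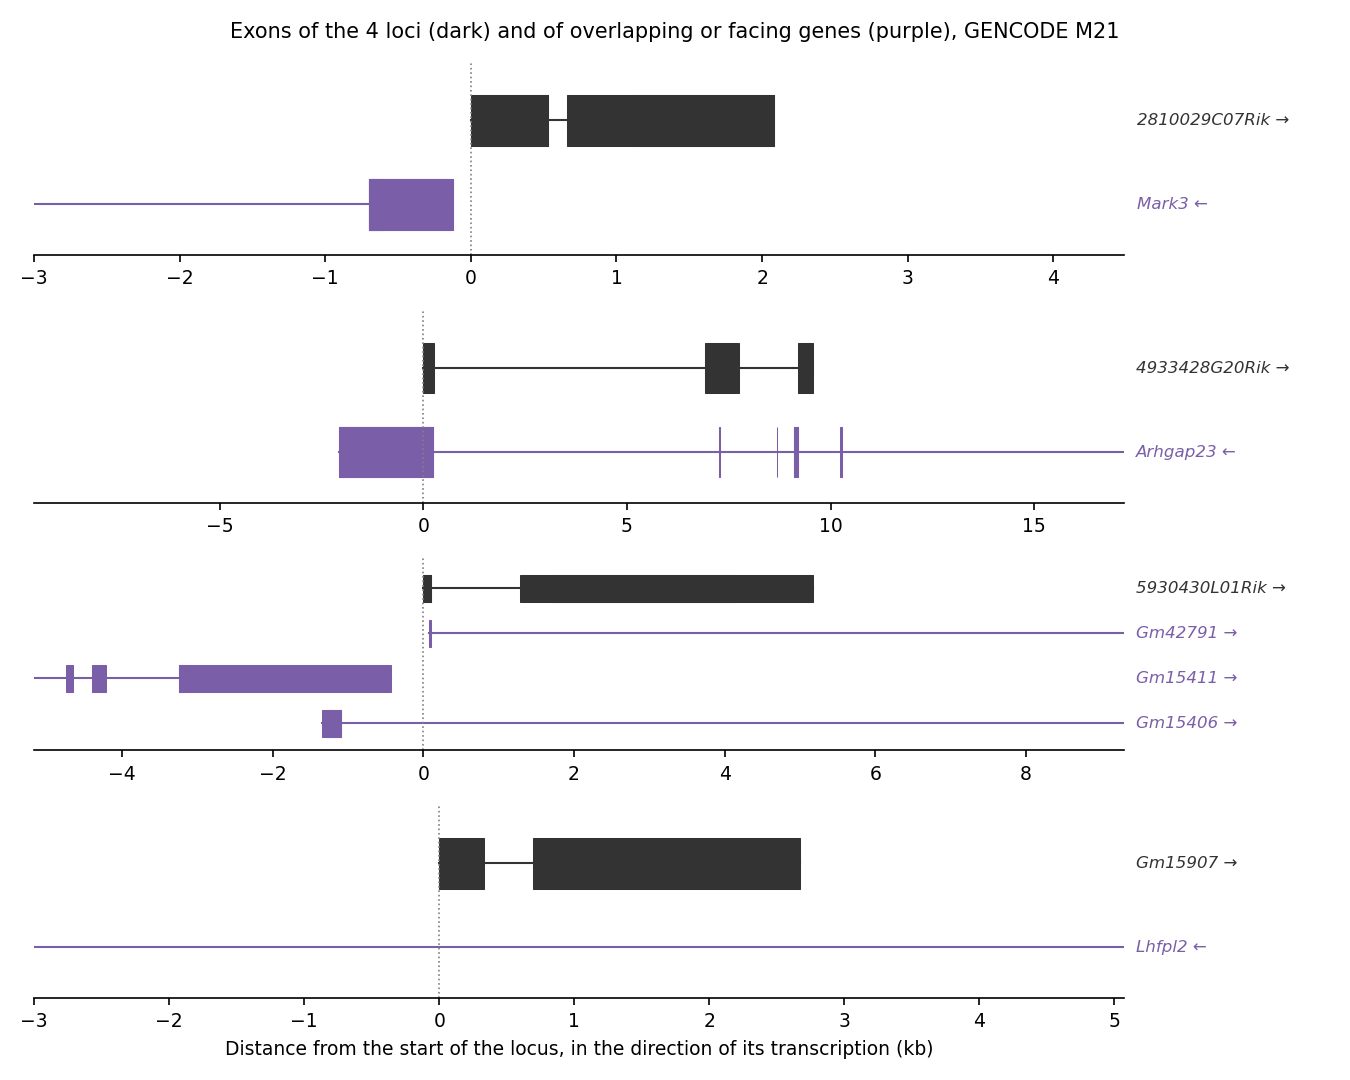
Exons (boxes) of the 4 loci in dark and of overlapping or facing genes in purple, drawn to scale as distance in kb from the start of the locus. Arrows give each gene's direction relative to the locus. *Mark3* starts 121 bases from *2810029C07Rik*, *Arhgap23* and *4933428G20Rik* share exonic sequence, and *Gm15907* lies in an intron of *Lhfpl2*.

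The starts of the loci are shown because they are the sequence from which the loci are read, and because 2 of the promoter windows hold the same motif. RefSeq gives a promoter window, 250 bases before to 50 after the start (GRCm38.p6), for 3 of the 4 loci. *Gm15907* has no entry there, and the first 200 bases of its transcript are shown instead (GENCODE M21, exon 1). Capitals mark motifs found, CCAAT in *2810029C07Rik* and the E-box CACGTG, a sequence bound by factors of the bHLH family, in *5930430L01Rik* and *4933428G20Rik*. In *Gm15907* the same letters are marked in the transcript, a different kind of region for which no background share was computed. All sequences run 5′ to 3′ along the locus on the minus strand of GRCm38. The first covers chr12:111574353-111574522, from the base before the start of *Mark3* to base 50 of *2810029C07Rik*, and so holds the whole stretch between both starts. The second is chr5:148995165-148995464, the third a 30-base stretch at chr11:97500484-97500513 and the fourth chr13:94139918-94140117.
2810029C07Rik: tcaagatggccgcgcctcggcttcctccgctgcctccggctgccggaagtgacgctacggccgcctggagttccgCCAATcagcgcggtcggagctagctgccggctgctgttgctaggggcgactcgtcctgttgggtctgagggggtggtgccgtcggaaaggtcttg
5930430L01Rik: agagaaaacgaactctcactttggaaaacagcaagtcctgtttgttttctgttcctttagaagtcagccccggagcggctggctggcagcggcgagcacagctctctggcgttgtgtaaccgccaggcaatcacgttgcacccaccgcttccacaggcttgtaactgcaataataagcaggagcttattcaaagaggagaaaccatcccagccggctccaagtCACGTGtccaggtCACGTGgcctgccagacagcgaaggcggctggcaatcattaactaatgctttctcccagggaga
4933428G20Rik: cgtgtccgtctcCACGTGgctcagctcgct
Gm15907: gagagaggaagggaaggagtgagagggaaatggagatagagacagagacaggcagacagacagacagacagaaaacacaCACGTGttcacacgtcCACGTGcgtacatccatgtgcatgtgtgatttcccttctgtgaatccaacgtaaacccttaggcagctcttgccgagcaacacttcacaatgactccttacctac

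A set of 6 short motifs was searched in the 3 promoter windows, on both strands. CACGTG, which reads the same on both strands, occurred in 7.15% of the 32851 RefSeq promoters of the same length. The *5930430L01Rik* window held it at positions -27 and -14 from the start, and the *4933428G20Rik* window held it at -161, while the *2810029C07Rik* window had none. CCAAT was found in 37.4% of all promoters and at -45 in *2810029C07Rik*. GGGCGG was found in 35.7% of all promoters, at -182 in *2810029C07Rik* and at -107 in *4933428G20Rik*. The letters AGAACA (19% of all promoters), TATAAA (13.6%) and AGATAA (11.2%) were not in any of the 3 windows. The windows of *2810029C07Rik* and *4933428G20Rik* were rich in CG dinucleotides, with 33 and 42 against a median of 7 over all promoters, and that of *5930430L01Rik* had 14. A match is a description of the letters, and no binding was measured.

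*2810029C07Rik* was close to the limit of detection in CONV-R mice. It had 4, 3, 2, 16, 3 and 4 counts in CONV-R replicates 1 to 6, which came to 0.310, 0.205, 0.246, 1.29, 0.242 and 0.310 CPM. In GF replicates 1, 2, 4, 5 and 6 it had 175, 58, 91, 68 and 58 counts, or 11.4, 5.60, 8.67, 8.99 and 7.87 CPM. The groups did not overlap, and CONV-R replicate 4 was the only CONV-R mouse above 1 CPM, holding 16 of the group's 32 counts. The Log2FC (GF minus CONV-R) from the edgeR fit was 4.25 ± 0.44 (SE), a fold of 19.1, the 4th highest of the 6337 genes with a positive value. It was 4.96 without CONV-R replicate 4 and 2.61 from the authors' normalized values, whose exact transformation is not stated. The gene passed the filter on low counts through its GF libraries alone.

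*4933428G20Rik* was moderately expressed in CONV-R mice. Its levels in CONV-R replicates 1 to 6 were 30.9, 41.2, 25.3, 38.2, 23.8 and 31.8 CPM, and those in the 5 GF mice were 14.0, 12.7, 7.52, 10.97 and 7.60 CPM. Every GF mouse was below every CONV-R mouse, and the coefficient of variation was 21.6% in CONV-R and 27.7% in GF mice. The Log2FC was -1.59 ± 0.21, 3.01-fold lower in GF mice.

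*5930430L01Rik* was the highest of the 4 by CPM and had the narrowest spread. CONV-R replicates 1 to 6 had 56.2, 47.2, 50.1, 47.3, 46.8 and 47.7 CPM, and GF mice had 23.3, 28.7, 23.9, 27.0 and 24.0 CPM. The coefficient of variation was 7.40% in CONV-R and 9.19% in GF mice, against 20.7% to 96.9% in CONV-R and 22.0% to 27.7% in GF mice for the other 3 loci. The groups lay far apart for their spread, with a Log2FC of -0.96 ± 0.12, 1.94-fold lower in GF mice.

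*Gm15907* was lower in every GF mouse. CONV-R replicates 1 to 6 had 37.1, 37.7, 52.4, 28.8, 37.6 and 34.1 CPM, and GF mice had 12.9, 16.5, 13.1, 11.4 and 8.95 CPM. CONV-R replicate 3 was the highest and replicate 4 the lowest of its group, yet the latter was still well above the highest GF mouse. The Log2FC was -1.59 ± 0.18, 3.00-fold lower in GF mice.

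All 4 loci passed an adjusted p of 0.05 in the fit over all 12905 tested genes, where 7.48% of genes did (4.8% higher and 2.67% lower in GF mice). All 4 also had groups without overlap, which 5.59% of tested genes had (3.22% higher and 2.37% lower in GF mice). These counts follow from how the loci were picked and say nothing further about them. *5930430L01Rik* had the smallest change, ranking 335 of the 6568 genes with a negative Log2FC, and *4933428G20Rik* and *Gm15907* ranked 46 and 48. Per kb of exon, the scale on which genes can be compared, *4933428G20Rik* had the highest level in CONV-R mice (22.4 CPM per kb), followed by *Gm15907* (16.4), *5930430L01Rik* (12.3) and *2810029C07Rik* (0.222). In GF mice the levels lay closer together, at 7.40, 5.44, 6.35 and 4.35 CPM per kb in the same order.

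**Figure D2:**
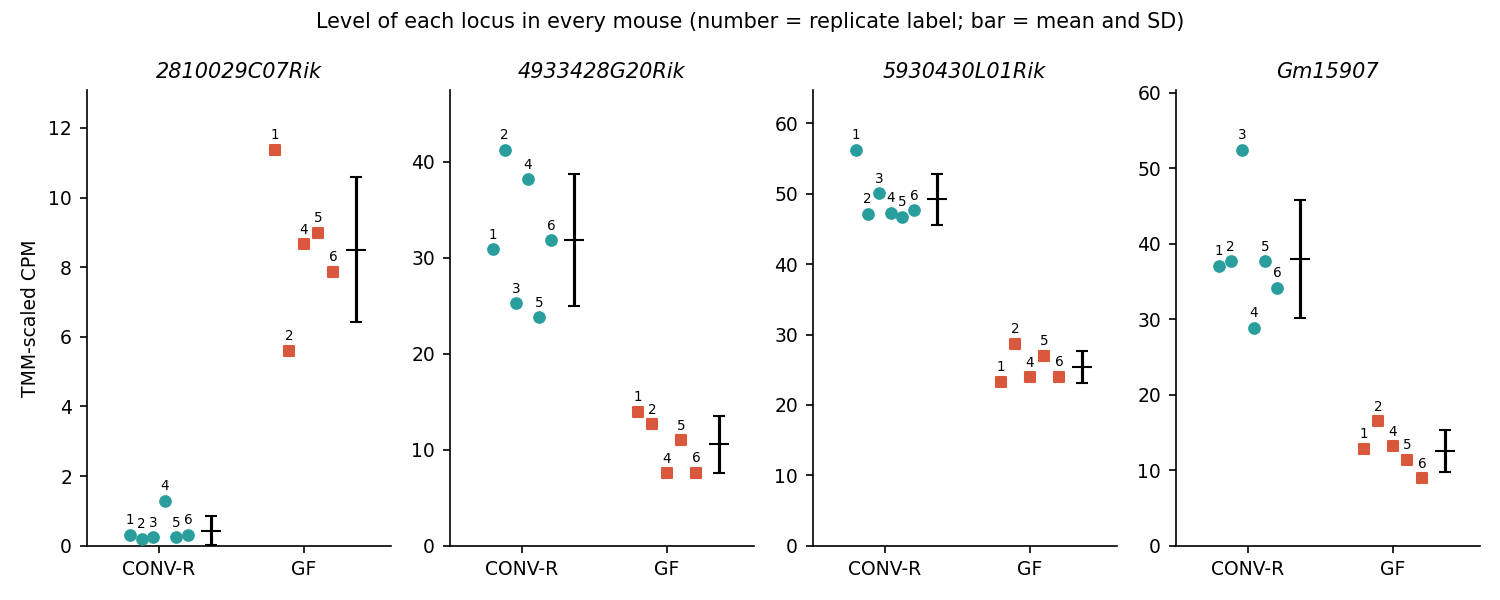
CPM (counts scaled to a common library size by TMM normalization) of each locus in each mouse; circles are the 6 CONV-R mice, squares the 5 GF mice, numbers are replicate labels, and the bars beside them are mean and SD. The groups do not overlap for any of the 4 loci, *2810029C07Rik* being higher in GF mice and the other three lower.

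Library totals were 7922855 to 14669352 counts in CONV-R and 7242717 to 16164588 in GF mice. The 10 sinusoidal endothelial markers summed to 32920–41860 CPM in CONV-R and 32700–46830 CPM in GF mice (two-sided exact permutation p = 0.513, Benjamini-Hochberg adjusted over 7 marker lists 0.598), and the cells thus carried the label's defining genes in both groups. Of the 10 Kupffer cell (liver macrophage) markers 7 were higher and none lower by edgeR's adjusted p, and their sum was 86.0–222 CPM in CONV-R and 197–931 CPM in GF mice (two-sided exact permutation p = 0.00866, adjusted 0.0303). The 7 lymphocyte markers summed to 4.82–12.5 and 2.61–5.62 CPM (exact permutation p = 0.00866, adjusted 0.0303), of which 3 were tested singly and did not pass. With any 1 mouse left out neither sum passed (adjusted p = 0.0556 to 0.111), while the GF minus CONV-R difference was -5.365 to -3.825 CPM for the lymphocyte markers (-4.596 with all mice) and 253 to 313 CPM for the Kupffer cell markers (263 with all mice), except 129.5 CPM without GF replicate 6. No marker list had a gene at 0 in all libraries, and the hepatocyte, stellate cell, neutrophil and pan-endothelial sums did not pass (adjusted p = 0.162 to 0.662). The part of these cells in the values of the 4 loci was not tested. In such bulk samples fewer cells of a type and less RNA per cell cannot be told apart. By the paper each library came from 1 mouse, so p-values measure the spread between mice. GF mice were kept in isolators and the labels name no cage, so housing cannot be told apart from group.

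Genes next to the loci were then compared by position, with edgeR's quasi-likelihood test and Benjamini-Hochberg adjustment over all tested genes. GENCODE M21 lists 27 genes within 100 kb of the loci, 20 were in the count table, 10 were tested, and 2 passed, both lower in GF mice. Within 50 kb 2 of 5 tested genes passed, and within 500 kb 5 of 47 did (1 higher and 4 lower), a share to be read against 7.48% of all tested genes. The median Log2FC of the 10 tested neighbours was 0.06, against -0.01 over all tested genes.

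*Lhfpl2* was expressed at 872, 904, 856, 762, 853 and 812 CPM in CONV-R replicates 1 to 6 and at 442, 435, 593, 449 and 486 CPM in the 5 GF mice. The groups did not overlap, and GF replicate 4 was the nearest to the CONV-R mice. The Log2FC was -0.81 ± 0.10 (edgeR adjusted p = 0.000137), between -0.90 and -0.77 with any 1 mouse left out. The change of *Lhfpl2* had thus the direction of that of *Gm15907* in its intron, but a smaller size.

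*Arhgap23* had 763, 703, 601, 759, 584 and 794 CPM in CONV-R replicates 1 to 6 and 623, 552, 477, 455 and 564 CPM in GF mice. GF replicate 1 was above CONV-R replicates 3 and 5, so the groups overlapped. The Log2FC was -0.39 ± 0.12 (edgeR adjusted p = 0.0479), and the call was lost in 8 of 11 fits that left out 1 mouse (adjusted p = 0.026 to 0.104), with a Log2FC between -0.45 and -0.34 in all of them. *4933428G20Rik* and *Arhgap23* share sequence: 185 of the 1376 stretches of 50 bases in *4933428G20Rik* transcripts (13.4%), the length of the reads, also occur in *Arhgap23* transcripts, on the other strand. The other 3 loci had no such stretch in a transcript of another gene.

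*Mark3*, which shares the promoter region of *2810029C07Rik*, had 196, 202, 313, 236, 215 and 241 CPM in CONV-R replicates 1 to 6 and 284, 296, 252, 379 and 323 CPM in GF mice. The groups overlapped through CONV-R replicate 3. Its Log2FC of 0.39 ± 0.13 did not pass (edgeR adjusted p = 0.0836). Without CONV-R replicate 3 it was 0.49 and passed (adjusted p = 0.0144). *Eif5*, a translation initiation factor gene on the other side of *2810029C07Rik*, had a Log2FC of 0.12 ± 0.13 (adjusted p = 0.625).

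None of the tested genes beside *5930430L01Rik* passed. *Katnal1*, a gene for a microtubule-severing protein, had 29.4 ± 2.97 CPM in CONV-R and 29.6 ± 5.02 CPM in GF mice (Log2FC 0.01 ± 0.14, edgeR adjusted p = 0.979). *Gm15408*, the nearest tested gene, had under 1 CPM on average in both groups (Log2FC -0.25 ± 0.51, adjusted p = 0.817). *Hmgb1*, a gene for a chromatin protein, had a Log2FC of 0.13 ± 0.15 (adjusted p = 0.668). The remaining tested neighbours were *Scamp1* beside *Gm15907* (0.11 ± 0.13, adjusted p = 0.694), *Socs7* beside *4933428G20Rik* (-0.19 ± 0.29, adjusted p = 0.748) and *Ckb* beside *2810029C07Rik* (0.72 ± 0.36, adjusted p = 0.242).

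**Figure D3:**
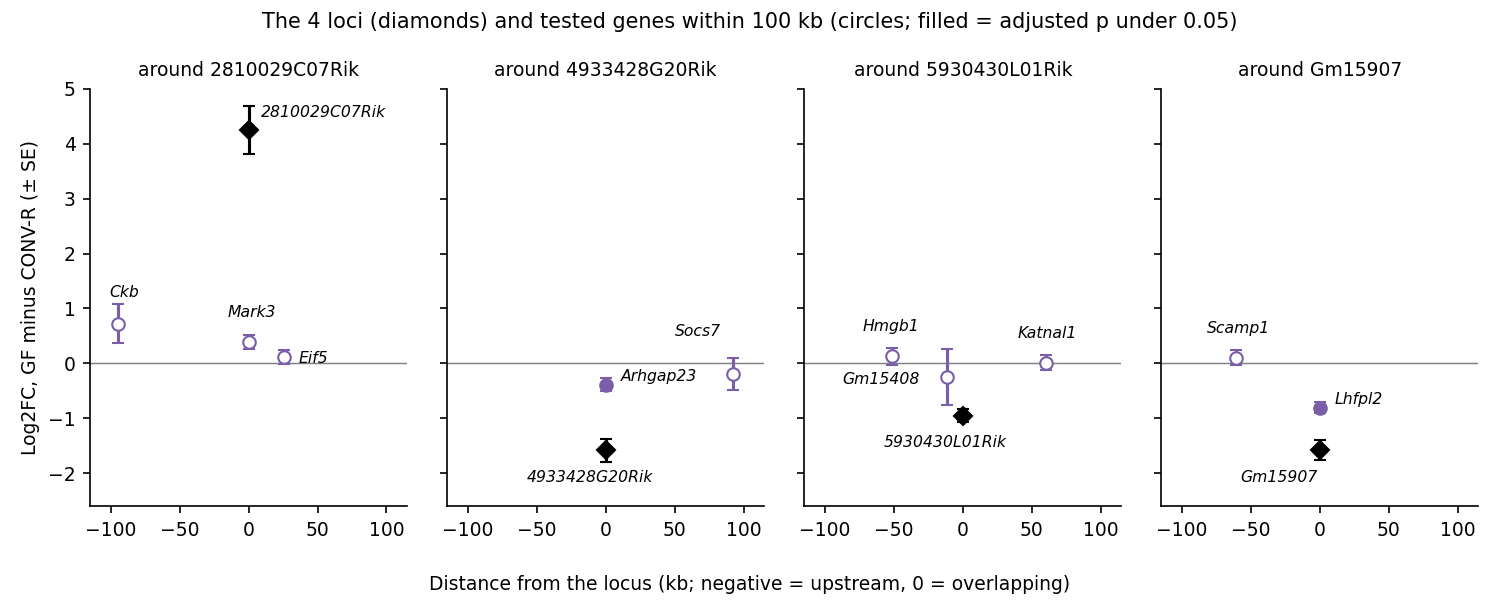
Log2FC (GF minus CONV-R, bars are SE, 6 CONV-R and 5 GF mice) of each locus (diamond) and of the tested genes within 100 kb (circles, filled where edgeR's adjusted p was under 0.05) by distance from the locus. *Lhfpl2* (-0.81) and *Arhgap23* (-0.39) are the filled circles, and both lie nearer to 0 than the locus they enclose.

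The libraries were made from double-stranded cDNA, which does not keep the strand, so reads of a locus and of a transcript on the facing strand cannot be told apart where they overlap. Annotated exons overlap only for *4933428G20Rik* and *Arhgap23*, over 268 of the 1425 exon bases of the locus. Counts of *Gm15907*, *4933428G20Rik* and *2810029C07Rik* were also set against those of the enclosing or facing gene, the partner, in the same library. Such a ratio does not separate shared reads. *Gm15907* had 4.49 ± 0.83 counts per 100 counts of *Lhfpl2* in CONV-R mice (3.79 to 6.13) and 2.66 ± 0.75 in GF mice (1.84 to 3.80), and the groups met at GF replicate 2 and CONV-R replicate 4. *4933428G20Rik* had 4.54 ± 0.76 counts per 100 counts of *Arhgap23* in CONV-R mice (4.01 to 5.87) and 1.98 ± 0.48 in GF mice (1.35 to 2.41), without overlap. *2810029C07Rik* had 0.187 ± 0.18 counts per 100 counts of *Mark3* in CONV-R mice (0.0784 to 0.545, the highest in CONV-R replicate 4) and 2.83 ± 0.87 in GF mice (1.89 to 4.01). Relative to its partner, *Gm15907* was thus 1.69-fold lower and *4933428G20Rik* 2.30-fold lower in GF mice. No fold is given for *2810029C07Rik* because CONV-R replicate 4 sets much of its CONV-R mean. These ratios use the values the loci were picked by and carry no test.

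**Figure D4:**
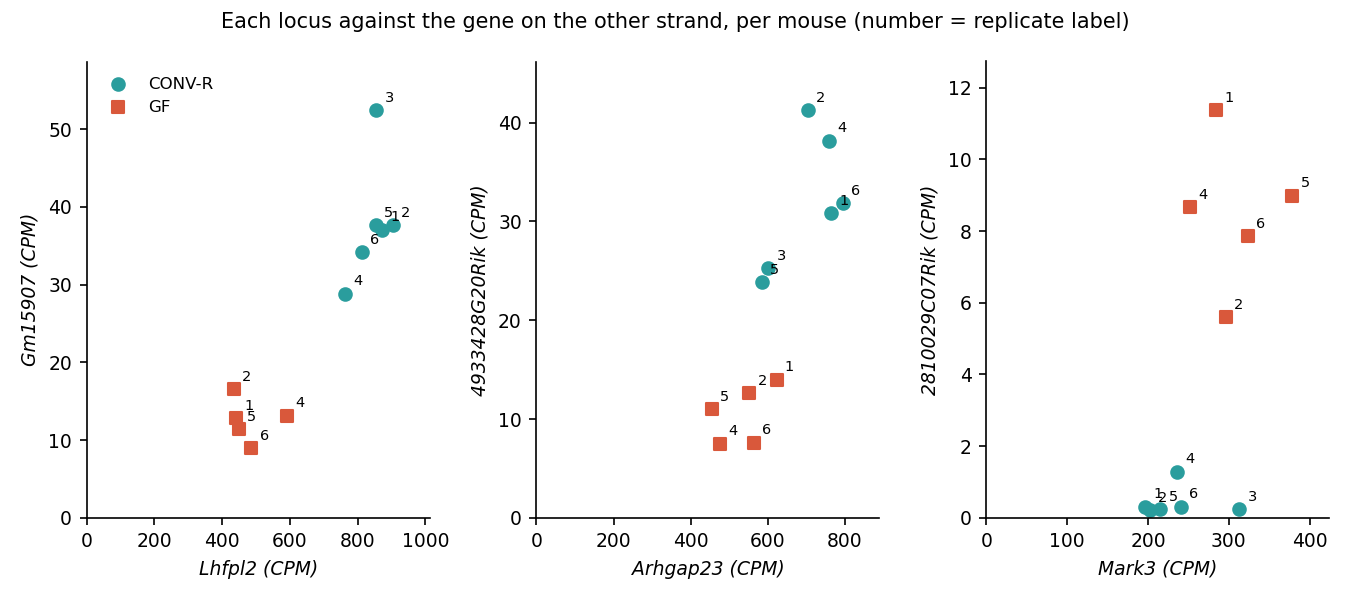
CPM of 3 loci (vertical) against CPM of the gene on the other strand (horizontal) in each of the 6 CONV-R mice (circles) and 5 GF mice (squares), with replicate labels. Both *Gm15907* and *Lhfpl2* separate the groups, whereas *Arhgap23* and *Mark3* overlap between them.

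The loci were picked for their shift between the groups. Whether that choice also depended on the spread among the CONV-R mice is not known. Over these 6 mice none of the 3 pairs among *4933428G20Rik*, *5930430L01Rik* and *Gm15907* had a correlation of log2 CPM that passed the test (Pearson r from -0.588 to 0.25, exact permutation p = 0.214 to 0.853, adjusted over the 6 pairs computed 0.642 to 0.853, Spearman rho from -0.314 to -0.0286 with p = 0.564 to 1.0, r from -0.983 to -0.338 without the 2 mice farthest from the median). The 3 pairs with *2810029C07Rik* rest on its 2 to 16 counts per CONV-R mouse and are not read. With its partner, *4933428G20Rik* had r = 0.703 (exact permutation p = 0.125, adjusted over 3 pairs 0.281, rho = 0.486 with p = 0.356, r = 0.778 without 2 mice). *Gm15907* and *Lhfpl2* had r = 0.598 (exact permutation p = 0.188, adjusted 0.281, rho = 0.714 with p = 0.136, r = 0.855 without 2 mice), and r was 0.16 without CONV-R replicate 4 and 0.935 without CONV-R replicate 3. The pair of *2810029C07Rik* and *Mark3* is limited by the same low counts. Correlations were not computed among the 5 GF mice.

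Each locus was also matched to the tested genes with the most similar profile over all 11 mice, by the root mean square difference of log2 CPM after centring each gene on its mean. The closest to *5930430L01Rik* were *Fads3*, of the fatty acid desaturase family (0.101), *Kazn*, which encodes a protein of cell junctions and cytoskeleton (0.12), and *Neurl3*, a ubiquitin ligase gene (0.154), where the median tested gene was at 0.593. *Neurl3* fell from 200.8 ± 28.1 CPM in CONV-R to 99.8 ± 10.5 CPM in GF mice. The closest to *Gm15907* were *Gm29430* (0.271), *Gm13582* (0.284) and *Msi1*, an RNA-binding protein gene (0.289), with the median gene at 0.895. *4933428G20Rik* was nearest to *4930403O15Rik* (0.335), *4933401H06Rik* (0.336) and again *Gm29430* (0.363), with the median gene at 0.919. *2810029C07Rik* was nearest to *Slc10a6*, a transporter gene for sulfated steroids (0.613), *Ddit4*, a stress-induced inhibitor of mTOR signalling (0.688), and *Lancl3* (0.70), with the median gene at 2.09. *Slc10a6* rose from 2.84 ± 0.80 to 31.3 ± 6.54 CPM. Since all 11 mice entered the measure, a shared difference between the groups dominates it, and it carries no test.

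The naming class was compared with the loci left out. The table held 9337 other Rik and Gm genes, of which 1348 were tested (14.4%), and 79 passed edgeR's adjusted p of 0.05 (5.86%, against 7.45% of the 12901 tested genes without the loci). Of these, 26 were higher (1.93%, against 4.8%) and 53 lower in GF mice (3.93%, against 2.65%). The split moved with single mice, to 30 higher and 34 lower without GF replicate 4 and to 23 higher and 75 lower without GF replicate 5, and the total fell to 50 without CONV-R replicate 2, 49 without CONV-R replicate 4 and 51 without CONV-R replicate 5 or GF replicate 1. With all mice edgeR called 619 higher and 342 lower genes over all tested genes without the loci. Calls over all tested genes, loci included, fell as well, so the lower totals were not particular to the class. They went from 965 to 658 without CONV-R replicate 2, 667 without CONV-R replicate 5 and 732 without GF replicate 1. Without CONV-R replicate 4 they were 416 higher and 209 lower. The split was 588 higher and 263 lower without GF replicate 4, and 779 and 481 without GF replicate 5. DESeq2 called 43 higher and 105 lower genes of the class, and 929 higher and 598 lower over all genes. The class was lowly expressed, with a median mean level of 3.18 CPM against 20.6 CPM over all tested genes. Its median Log2FC was -0.21 against -0.01 over all tested genes, and it was -0.22 for the 241 tested lincRNAs (12 passed), -0.24 for the 470 antisense RNAs (32 passed), -0.14 for the 306 genes classed as protein coding (16 passed) and -0.13 for the 26 RNAs of bidirectional promoters. Of these 26, the type of *2810029C07Rik*, 0 passed an adjusted p of 0.05 by edgeR, DESeq2 or limma voom, and 0, 0 and 2 had an unadjusted p under 0.05.

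The shift of the class was uneven among GF mice. Its median log2 CPM was 1.71 to 1.90 in the CONV-R mice, 1.51, 1.35 and 1.46 in GF replicates 1, 4 and 6, and 1.89 and 1.93 in GF replicates 2 and 5. GF replicates 1, 4 and 6 were thus below all CONV-R mice and GF replicates 2 and 5 were level with them, and the groups did not differ by the test (1.82 ± 0.08 against 1.63 ± 0.26, two-sided exact permutation p = 0.136, adjusted over 4 measures 0.277). GF replicates 1, 4 and 6 also had the lowest TMM factors (0.9536, 0.9473 and 0.9443, against 0.9975 to 1.046 in the other 8 libraries). The part of this in the class values was not tested.

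**Figure D5:**
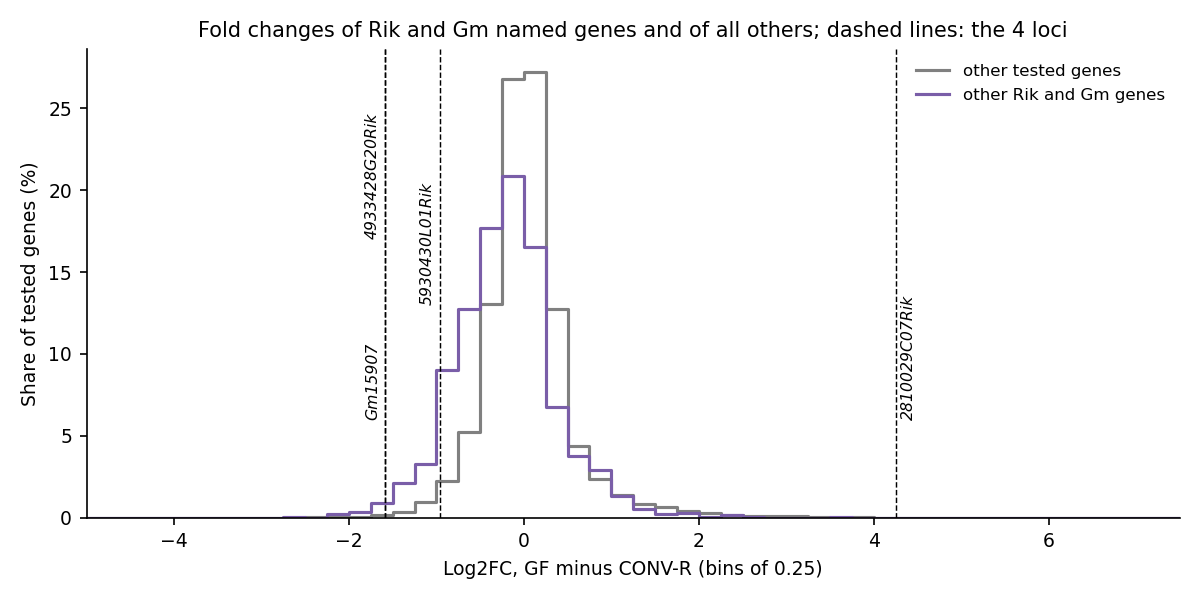
Share of genes (%) by Log2FC (GF minus CONV-R, bins of 0.25) for the 1348 other tested Rik and Gm genes (purple) and the other tested genes (grey), with the 4 loci as dashed lines. The purple curve lies to the left of the grey one, with medians of -0.21 for Rik and Gm genes and -0.01 over all tested genes.

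Lying inside a gene on the other strand, as *Gm15907* and *4933428G20Rik* do, was shared by many of the class. Of the 1340 tested Rik and Gm genes with a position 414 lay within a tested gene of the other strand, 412 of them besides these 2 loci, which gave 433 pairs. By edgeR's adjusted p the inner gene passed in 38 pairs and the outer gene in 50, to be read against 5.86% of the class and 7.45% of all tested genes. Both passed in 11 pairs, in the same direction each time, and over all 433 pairs 295 had Log2FC values of the same sign. Both genes of a pair come from the same libraries and may share reads, so these counts carry no test. The same counts were not computed for pairs of genes that do not overlap. Without that background they do not show that inner and outer genes change together. *5930430L01Rik* and *2810029C07Rik* have no such host.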

How the data were processed

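RNA-seq reads (single-end, 50 bases) came from 6 CONV-R and 5 GF mice. Per the study's methods the authors trimmed reads with Trim Galore, aligned them to GRCm38 with STAR and counted them per gene with featureCounts; the submitters' processing notes also name FastQC, SAMtools, Picard, StringTie, bedtools and MultiQC. The annotation release and the strand setting are not given in the sources used here. The deposited raw counts were used for all main results. A 2nd deposited table holds log2 normalized values by the authors, made with the DESeq method by a transformation that is not stated, and served as an alternative.

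Counts were filtered with filterByExpr, TMM-scaled and fitted across all 12905 remaining genes with edgeR 4.0.16 (quasi-likelihood test, Benjamini-Hochberg adjustment, threshold 0.05; R 4.3.3). The procedure was tested on simulated data. Log2 CPM used a prior count of 2. Exact permutation tests ran over all orders or splits of the mice, and SciPy 1.17.1 gave the ranks and the Benjamini-Hochberg adjustment of the correlations. Alternatives used DESeq2 1.42.0, limma 3.58.1, other filters and scalings, and leaving out each mouse. Of the 29307 gene identifiers 29081 matched GENCODE M21, which gave positions, and promoters came from RefSeq (GRCm38.p6).

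The loci and the gene lists were chosen with earlier results of these data known. Genes were named by rule: the 4 loci, genes overlapping them and the nearest tested gene on each side, genes within 100 kb that passed 0.05, and the 3 most similar genes per locus; the other tested neighbours were added after their values were seen. Comparisons of the naming class per mouse and of genes inside other genes were also chosen after seeing the data. Replicate numbers in the 2 groups did not pair the mice (correlation of deviations -0.0144 to 0.201 over 5 numbers).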

Additional observations from a re-analysis of the deposited data

Results flagged for a closer look

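In 42 groups of values tested for 1 library far from the others by Dixon's test, 6 had such a library, where chance flags about 1 in 20. *2810029C07Rik* in CONV-R replicate 4 was at 1.29 CPM, with the other CONV-R mice at 0.205 to 0.310 CPM. *5930430L01Rik* in CONV-R replicate 1 was at 56.2 CPM, with the others at 46.8 to 50.1 CPM. Both lie at the upper end of CONV-R, so the first is the CONV-R mouse nearest to the GF mice and the second the one farthest from them.

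*Socs7* in GF replicate 6 was at 2.58 CPM, with the other GF mice at 7.52 to 8.40 CPM. *Scamp1* in GF replicate 6 was at 204.5 CPM, with the others at 120.8 to 138 CPM. The summed Kupffer cell markers in the same mouse were at 931 CPM, with the others at 197 to 356 CPM. The summed pan-endothelial markers in GF replicate 5 were at 10070 CPM, with the others at 14230 to 14770 CPM.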

How the results depend on the processing

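The direction of the 4 loci held under RLE scaling, DESeq2, limma voom, no filter, at least 10 counts in every library, thinned counts, the replicate block and the authors' values, except that *2810029C07Rik* had no value under the filter of 10 counts. The authors' log2 values gave 2.61 for *2810029C07Rik*, -1.26 for *4933428G20Rik*, -0.76 for *5930430L01Rik* and -1.26 for *Gm15907*, all nearer to 0; their exact transformation is not stated, so these differences may not be on the same scale. With 1 mouse left out *2810029C07Rik* ranged from 4.09 to 4.96, and the highest value came without CONV-R replicate 4. DESeq2 called 1527 genes against 965 by edgeR, and 148 other Rik and Gm genes against 79. With 1 mouse left out edgeR called 622 (without GF replicate 6, and nearly as few without CONV-R replicate 4) to 1260 genes, 49 to 98 other Rik and Gm genes and 1 to 3 neighbours within 100 kb. With all mice 5 neighbours within 500 kb were called.

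*Arhgap23* ranged from -0.45 to -0.34 and lost its call in 8 of 11 such fits; *Lhfpl2* kept its call in all. The replicate block (10 mice) gave 0.48 for *Mark3* (adjusted p = 0.0140), as did the same 10 mice without it (0.49, adjusted p = 0.0144), which leave out CONV-R replicate 3; it changed no other call among the 10 tested neighbours. With the block edgeR called 1101 genes and 71 other Rik and Gm genes, and 931 and 72 without it on the same mice. The replicate numbers are shared labels and not a pairing. *Katnal1* was -0.0093 with thinned counts, -0.0111 by voom, -0.0089 without a filter, -0.0078 with the block and -0.0821 to 0.0832 with 1 mouse left out. *Socs7* ranged from -0.3071 to 0.0098 and *Scamp1* from -0.0438 to 0.1665, changing sign without GF replicate 6. None of these 3 was called.

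Spearman's rho was 0.429 for *2810029C07Rik* with *5930430L01Rik* and -0.0286 for *5930430L01Rik* with *Gm15907*, of the other sign than Pearson's r. With 1 CONV-R mouse left out r ranged from -0.198 to 0.837 for *2810029C07Rik* with *4933428G20Rik*, from -0.264 to 0.561 with *5930430L01Rik* and from -0.0829 to 0.551 with *Mark3*, from -0.481 to 0.0288 for *4933428G20Rik* with *5930430L01Rik* and from 0.16 to 0.935 for *Gm15907* with *Lhfpl2*. The GF minus CONV-R difference in summed CPM ranged from 129.5 to 312.9 for Kupffer cell, -5.374 to 0.6966 for stellate cell and -5.365 to -3.825 for lymphocyte markers. The level of *2810029C07Rik* in CONV-R mice rests on 2 to 16 counts per library, 16 of the 32 in replicate 4.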
